A study of Mus musculus with 2 samples.

Results

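Plasmacytoid dendritic cells are a small population of circulating and tissue dendritic cells that carry Siglech and are known for making large amounts of type I interferon when their endosomal receptors meet viral nucleic acid. Their identity is kept by Tcf4, an E protein that binds E-box DNA, with Irf8, Runx2, Bcl11a and Spib, while Id2, Batf3 and Zbtb46 belong to conventional dendritic cells. In liver they sit among the sinusoidal leukocytes. Here 452 such cells (WT 156, N-LKO 296) were chosen by 13 genes from 42372 single-cell barcodes that held at least 1000 unique molecular identifiers (UMIs, each 1 captured mRNA), at least 400 genes and at most 30% mitochondrial UMIs (20158 barcodes in WT and 22214 in N-LKO). A cell was taken when the UMIs of Siglech, Ccr9, Klk1, Cox6a2 and Pacsin1 summed to at least 2 with at least 1 from Siglech, and when those of Clec4f, Vsig4, Cd5l, Stab2, Ptprb, Pax5, Ms4a1 and Dcn, which mark Kupffer, endothelial, B and stellate cells, summed to at most 1. These 13 genes chose the cells and are given below as a description.

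The study compared C57BL6 male mice in which albumin-Cre removed loxP-flanked NgBR (gene Nus1), a subunit of the enzyme that makes dolichol for glycosylation, from hepatocytes (N-LKO) with wild-type mice, labelled CTRL, and both were fed a Western diet for 16 weeks (the sample titles call it HFD). The WT library was made from liver and the N-LKO library from liver plus tumor, with hepatocytes and nonparenchymal cells mixed in set proportions and tumor cells added for N-LKO. Each group was 1 library, so genotype, tumor tissue and library cannot be told apart, there is no replicate check, and no p-value is given. The albumin promoter of the Cre aims the deletion at hepatocytes and not at dendritic cells. Intervals are 95% and cover counting error of these libraries only.

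The 156 WT cells held 219237 UMIs and the 296 N-LKO cells 463166, with median depths of 1256 and 1405 UMIs and of 779 and 824.5 genes per cell. No barcode was shared between the cells of the 2 libraries. Mitochondrial UMIs made up a median of 12.4% in WT and 17.7% in N-LKO, and the same shift was seen in conventional dendritic cells (9.72% and 14.7%) and B cells (12.5% and 16.8%). Free RNA from broken hepatocytes was measured as the share of 15 hepatocyte transcripts in the cells divided by that share in barcodes under 500 UMIs, and came to 50.04% in WT and 47.7% in N-LKO. This takes every UMI of those 15 transcripts in the cells as free RNA. The smallest of these low barcodes held 326 (WT) or 377 (N-LKO) UMIs, and they could include damaged cells, so the free RNA level of a gene is an estimate. A Scrublet doublet score over 0.25 was found in 8 WT cells (5.13%) and 18 N-LKO cells (6.08%).

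Because Tcf4 binds E-boxes and 3 rule genes held one near their start, the 250 bases upstream of Siglech, the sialic acid-binding receptor of these cells, of Ccr9, a gut-homing chemokine receptor, and of Klk1, a kallikrein protease, are printed here from RefSeq (GRCm38.p6), 5′ to 3′ along the gene, with the E-box CAGGTG or its reverse complement CACCTG in capitals. They lie at chr7:55767934-55768183, chr9:123766961-123767210 and chr7:44225110-44225359, each on the plus strand.

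Siglech upstream: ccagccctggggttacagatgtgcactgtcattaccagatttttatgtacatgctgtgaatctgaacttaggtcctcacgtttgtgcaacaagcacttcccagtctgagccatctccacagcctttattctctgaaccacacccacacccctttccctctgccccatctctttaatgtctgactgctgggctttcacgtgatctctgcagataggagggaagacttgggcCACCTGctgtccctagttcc

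Ccr9 upstream: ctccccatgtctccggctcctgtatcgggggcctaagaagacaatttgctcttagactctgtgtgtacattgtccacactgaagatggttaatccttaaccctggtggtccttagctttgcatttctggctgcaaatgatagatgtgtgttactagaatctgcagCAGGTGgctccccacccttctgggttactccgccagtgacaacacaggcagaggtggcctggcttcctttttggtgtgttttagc

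Klk1 upstream: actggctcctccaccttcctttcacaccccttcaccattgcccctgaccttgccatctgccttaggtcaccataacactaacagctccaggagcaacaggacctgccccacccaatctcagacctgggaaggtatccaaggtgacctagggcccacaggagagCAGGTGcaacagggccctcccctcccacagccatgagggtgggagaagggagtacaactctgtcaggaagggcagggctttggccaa

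The E-box begins 20 bases upstream of the Siglech start, 85 bases upstream of Ccr9 and 87 bases upstream of Klk1. Pacsin1, a membrane-bending protein, held no match in its window. Thus 3 of the 4 rule genes with a sequence held the 6 letters on either strand. The E-box was printed because these genes held it, so their count is a description and cannot test enrichment. Of 32851 RefSeq windows of the same length, 17.2% held the E-box. Of the 25 leading genes described below, 20 had a sequence, and 7 of these (35.0%) had at least 1 window with a match. A gene could have several windows, and the 20 genes had 26. The share per gene therefore cannot be set against the 17.2% per window. A second run of letters, TGTGGT or its reverse complement ACCACA, was also searched. It was found in 2 of the 4 rule genes, in 5 of the 20 leading genes and in 4614 of the 32851 windows. A match is a run of letters and says nothing on binding.

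Siglech averaged 1852 CPM (UMIs scaled to the summed UMIs of the cells, interval 1676 to 2041) over the WT cells and 1565 CPM (1453 to 1684) over the N-LKO cells, with 1 to 10 UMIs per WT cell and 1 to 7 per N-LKO cell. Of the other rule genes, Ccr9 was seen in 78 of the 156 WT cells and in 48.6% of the N-LKO cells, Cox6a2, a respiratory chain subunit, in 44.2% and 41.6%, Pacsin1 in 28.8% and 26.0%, and Klk1 in 19.2% and 24.0%. Siglech alone met the rule in 22 WT and 46 N-LKO cells, while 65 and 127 cells held at least 3 of the 5 genes. At the edge of the rule, 31 WT and 55 N-LKO cells had exactly 2 such UMIs, and their Tcf4 level was 1829 and 2279 CPM. Just outside, the 47 WT and 94 N-LKO barcodes with 1 Siglech UMI and no other rule gene held 605 and 1422 CPM of Tcf4. Barcodes left out for an other-cell sum of 2, 14 in WT and 53 in N-LKO, held 2519 and 2371 CPM of Tcf4. Those at 3 or more, 31 and 108 barcodes, held 2601 and 2141 CPM. Thus barcodes outside the rule also carried the gene, and doublets and free RNA among them were not separated. A sum of exactly 1 was present in 37 WT members (23.7%) and 104 N-LKO members (35.1%).

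Genes that the rule did not use marked the cells as plasmacytoid dendritic cells in both libraries. Tcf4 stood at 2586 CPM (2378 to 2808) for WT and 2476 CPM (2335 to 2624) for N-LKO, which was 10.9 and 6.15 times its level in all other cells. Runx2, which governs exit from bone marrow, stood at 1423 CPM (1270 to 1590) and 1181 CPM (1084 to 1284). Irf8 was at 935 and 732 CPM, only 1.82 and 1.22 times its 512 and 598 CPM in conventional dendritic cells. Bcl11a, a zinc finger factor, was at 739 and 700 CPM, against 124 and 171 CPM there. Spib, an Ets factor, was low in absolute terms, at 54.7 and 49.7 CPM, and was still 59.6 and 19.1 times its level in other cells. After thinning every cell to 1000 UMIs, Runx2 was seen in 66.7% (WT) and 66.9% (N-LKO) of plasmacytoid cells and in 1.53% and 4.25% of endothelial cells, which should lack it. Before thinning those shares were 76.9% and 74.7% against 2.53% and 6.39%, at median depths of 1256 and 1405 UMIs against 1251 and 1402. Thinned shares for Tcf4 were 87.8% and 89.5%, and endothelial cells, which use Tcf4 too, held it in 44.4% and 51.0%.

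Ranked by the smaller of the WT and N-LKO ratios over all other cells, the leading genes outside the rule were Cd300c, an activating immunoglobulin receptor, the membrane receptor Paqr5, Pdzd4, Ppm1e, and Grm8, a glutamate receptor. Grm8 reached 1346 (WT) and 1118 (N-LKO) CPM plasmacytoid cells, against 8.53 and 37.3 CPM in conventional dendritic cells. Mctp2, a membrane protein with C2 domains, reached 1186 and 1244 CPM, against 34.1 and 64.0 CPM in conventional dendritic cells. Tmem163, a zinc transporter, was at 265 and 266 CPM, against 205 and 182 CPM in B cells. Cacna1e, a calcium channel subunit, stood at 420 and 225 CPM, against 205 and 107 CPM in B cells. Rnase6, an antimicrobial ribonuclease, was at 488 and 352 CPM. Other leading genes were Eldr, Klra17, Gm34680, Runx2, Bcl11a, Iglc3, Srgap3, Ncald, Rpgrip1, Cyb561a3, Rgs18, Tmem229b, Tubgcp5, Rnf220 and Jaml. Klra17 and Iglc3 belong to families with close copies, so their counts are uncertain, and Iglc3 was at 265 and 186 CPM against 386 and 134 CPM in B cells. Jaml was not above conventional dendritic cells, at 91.2 and 95 CPM against 119 and 112 CPM.

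Several genes of conventional dendritic cells were lower here than in those cells. Summed over a list of 12 such genes, the plasmacytoid cells still held 1017 (WT) and 1097 (N-LKO) CPM. At least 1 UMI of that list was present in 60.9% and 68.9% of them. Id2, which blocks E proteins, was at 169 (WT) and 106 (N-LKO) CPM, against 589 and 598 CPM in conventional dendritic cells. Batf3 was at 4.56 and 10.8 CPM, against 98.1 and 131 CPM. The class II peptide chain Cd74 was at 1095 and 1451 CPM, against 5083 and 4956 CPM, and H2-Aa at 442 and 557 CPM, against 2124 and 2174 CPM. Zbtb46 was at 9.12 and 30.2 CPM against 252 and 221 CPM, but it helped to choose the conventional class. Not every textbook gene was detected. Tlr9, the DNA receptor, had 0 UMIs in WT and 2 in N-LKO, and Ptcra had 0 in both. Tlr9 was also at 0 CPM in B cells of both libraries and at 0.125 (WT) and 0.216 (N-LKO) CPM in all other cells. Ptcra was at 0.408 and 0.648 CPM in all other cells. Both genes were thus hardly captured anywhere, and their absence from these cells cannot be read from the counts. Mzb1, an endoplasmic reticulum chaperone, was at 41.1 and 34.5 CPM, below the 378 and 188 CPM of B cells.

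**Figure D1:**
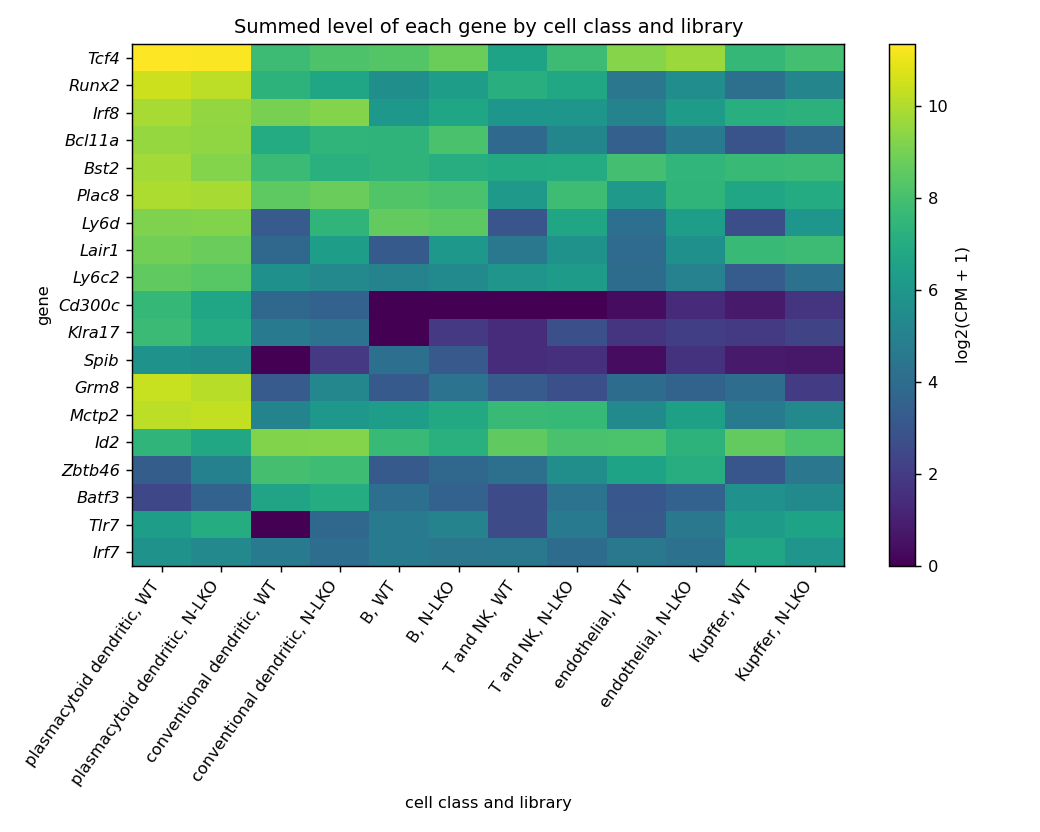
Heat map of log2(CPM + 1) of named genes (rows) in 6 cell classes in the WT and the N-LKO library (columns), from summed UMIs. Tcf4, Runx2, Grm8 and Mctp2 are highest in the plasmacytoid columns of both libraries, and Id2, Zbtb46 and Batf3 in the conventional dendritic columns.

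The comparison of shares asked how many leukocytes were plasmacytoid dendritic cells in each library. They were 156 of 4073 leukocyte cells in WT, 3.83% (exact interval 3.26% to 4.47%), and 296 of 9835 in N-LKO, 3.01% (2.68% to 3.37%), a difference of -0.820 percentage points (Newcombe interval -1.53 to -0.167). Barcodes that met the marker rule but had an other-cell sum over 1 were not counted as members. These were 14 in WT and 53 in N-LKO at a sum of 2, and 31 and 108 at 3 or more. Their part in the difference was not tested. Among all cells passing the limits the order was the other way, 0.774% and 1.33%, a difference of 0.559 points (0.365 to 0.753), but that share moves with the mixing of hepatocytes and nonparenchymal cells. Of cells with a Ptprc UMI they were 3.11% and 2.77%, a difference of -0.339 points (-0.934 to 0.214). Of both dendritic classes together they were 52.3% and 58.7%, a difference of 6.38 points (-0.712 to 13.4). Against single lymphocyte classes the order also depended on the base. They were 64.5% (WT) and 56.6% (N-LKO) of plasmacytoid plus B cells, a difference of -7.87 points (-15.0 to -0.375), and 27.2% and 47.3% of plasmacytoid plus T and NK cells, a difference of 20.1 points (14.7 to 25.3). With a minimum of 1500 UMIs, 36 of 1831 leukocyte cells in WT and 125 of 5335 in N-LKO were members, and the difference became 0.377 points (-0.455 to 1.08).

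**Figure D2:**
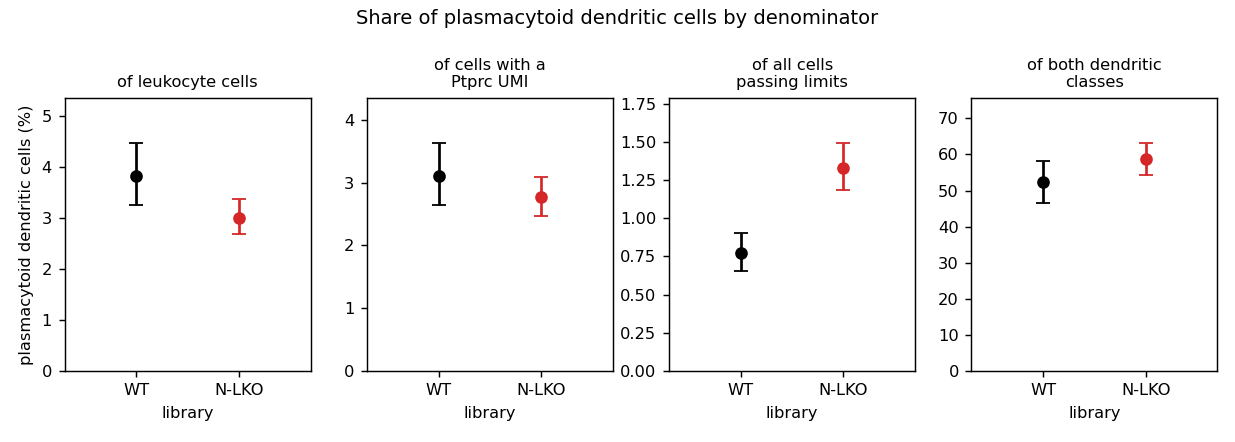
Plasmacytoid dendritic cells as a percentage of 4 denominators in WT (black) and N-LKO (red), with exact 95% intervals for counting error. The point is lower in N-LKO for leukocyte cells (3.83% and 3.01%) and higher among all cells passing the limits (0.774% and 1.33%).

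The next comparison was of expression in these cells between the N-LKO and WT libraries. A gene was called where it had at least 10 UMIs over both libraries, differed at least 2-fold and had an exact interval of the ratio that excluded 0 on the log2 scale. Of 7843 genes tested, 508 (6.48%) were called higher in N-LKO and 495 (6.31%) lower, with a median log2 ratio of 0.03. Intervals hold for each gene alone and were not adjusted over genes. Free RNA moved with the calls. Of the lower genes, 81.4% had a level in WT barcodes under 500 UMIs over 2-fold that in N-LKO ones, against 16.1% of genes tested. Of the higher genes, 53.3% had the reverse, against 19.7% of genes tested. The part of free RNA in each call was not tested, but in 209 higher genes free RNA was below 25% of the N-LKO level, and in 39 lower genes below 25% of the WT level. That limit was set in the library where the gene is high, so it says nothing of the share in the other library.

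**Figure D3:**
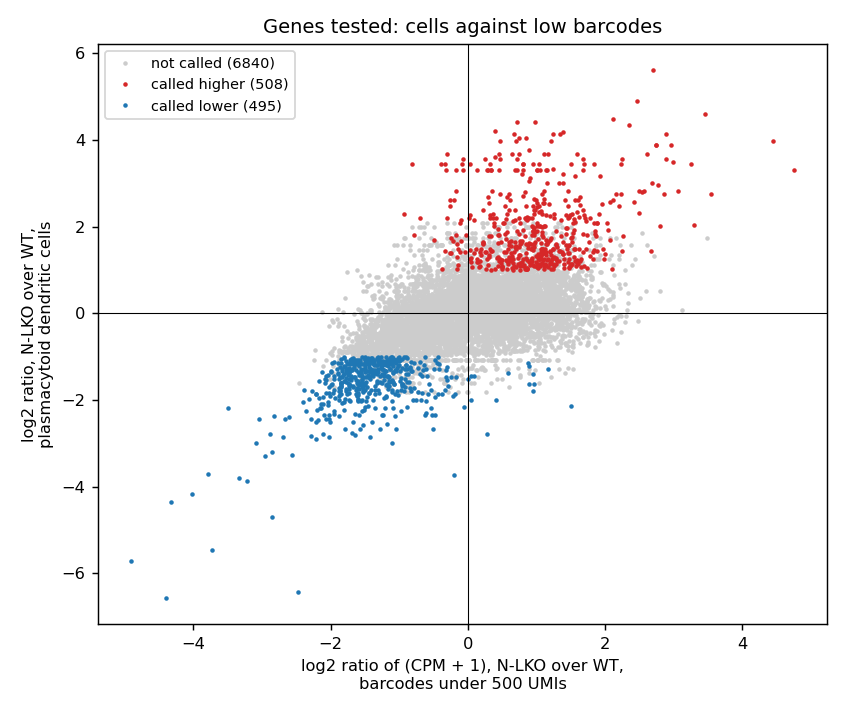
Each point is 1 of 7843 tested genes, with the log2 ratio of N-LKO over WT in barcodes under 500 UMIs (CPM + 1) on the x axis and in plasmacytoid dendritic cells (0.5 UMI added) on the y axis. Genes called higher (red, 508) lie mostly to the right and genes called lower (blue, 495) mostly to the left.

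The genes of the program that defines the cells were then compared between the libraries. Of 23 tested markers outside the rule 0 were called in either direction, with a median log2 ratio of -0.17, 6 of them above and 17 below 0. Tcf4 had a log2 ratio of -0.06 (-0.21 to 0.09), Runx2 of -0.27 (-0.47 to -0.06) and Irf8 of -0.35 (-0.61 to -0.10). Bst2, a surface protein that is also interferon-inducible, was at 876 CPM (756 to 1009) and 605 CPM (536 to 680), a ratio of -0.54 (-0.80 to -0.26). Cd300c was at 187 CPM (134 to 254) and 101 CPM (74.6 to 135), a ratio of -0.88 (-1.52 to -0.24). These intervals exclude 0, but the changes were below 2-fold. Of 16 tested transcription factors 1 was called higher and 0 lower. That gene was Spi1, the myeloid factor PU.1, with 8 WT and 38 N-LKO UMIs (36.5 and 82.0 CPM) and a ratio of 1.10 (0.05 to 2.48). In the 107 WT and 144 N-LKO cells with no UMI of 10 further T, NK, B, myeloid or conventional dendritic genes, Spi1 had 3 and 10 UMIs and was no longer called (ratio 1.02, -0.79 to 3.67), as in 5 of the 7 other selections in all. The background for a call was 6.48% higher and 6.31% lower.

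The sensing pathway had 16 tested genes, of which 1 was called higher and 0 lower, against 6.48% higher and 6.31% lower over all genes. Of the 16 genes 10 lay above 0, with a median log2 ratio of 0.33. Tlr7, the endosomal RNA receptor, had 18 UMIs in WT (82.1 CPM, 48.7 to 130) and 60 in N-LKO (130 CPM, 98.9 to 167), a ratio of 0.63 (-0.12 to 1.51). Unc93b1, its chaperone, was at 210 and 287 CPM, a ratio of 0.44 (-0.04 to 0.97). The NF-kappaB subunit gene Nfkb1 was at 155 and 244 CPM, a ratio of 0.64 (0.09 to 1.25). Ifih1, a cytosolic RNA helicase, was called higher, from 5 UMIs (22.8 CPM) to 30 UMIs (64.8 CPM), a ratio of 1.39 (0.13 to 3.23), and was not called in the cells with no UMI of the 10 further genes (1.87, -0.01 to 5.33), as in 4 of the 7 other selections in all. Irf7, which drives interferon genes, had 12 and 18 UMIs and a ratio of -0.51 (-1.63 to 0.69).

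Type I and III interferons were not detected. All 20 measured interferon genes had 0 UMIs in both libraries, and 0 counts allow a level of up to 13.7 CPM per gene in WT and 6.48 CPM in N-LKO, or a UMI in up to 1.92% of WT and 1.01% of N-LKO cells. Of 28 measured interferon-stimulated genes 15 were tested, 0 were called higher and 0 lower, and the median log2 ratio was 0.22. The background for a call was again 6.48% higher and 6.31% lower. The median turned to -0.20 at a minimum of 1500 UMIs and to -0.07 with free RNA subtracted, and the summed level of the list had a ratio of -0.06. Ifi27l2a, an interferon-inducible mitochondrial protein gene, was at 274 CPM (209 to 352) and 285 CPM (239 to 338). Isg15, a ubiquitin-like protein, had 2 and 9 UMIs. The Ifi200 family members Ifi203 and Ifi204 are close copies of each other and are uncertain.

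Receptors held 18 tested genes, of which 0 were called higher and 1 lower, with a median log2 ratio of -0.15. For this and the next 2 lists the background was 6.48% called higher and 6.31% called lower. The lower gene was Clec10a, a C-type lectin, at 100 CPM (62.9 to 152) for WT and 41.0 CPM (24.7 to 64.1) for N-LKO, a ratio of -1.29 (-2.26 to -0.34), with free RNA of 0.123 and 0.861 CPM. It stayed called in the cells with no UMI of the 10 further genes (-1.17, -2.43 to -0.01). It was not called at a minimum of 500 UMIs (-0.87), at a mitochondrial limit of 10% (-1.04, -3.75 to 0.97) or at 1500 UMIs, where it had 0 and 8 UMIs. Klra17, a Ly49 family receptor, was at 210 and 125 CPM, a ratio of -0.75 (-1.33 to -0.15), and Clec12a, an inhibitory lectin, at 192 and 114 CPM, a ratio of -0.75 (-1.36 to -0.12). Of 10 tested migration receptors 0 were called, with a median of 0.27. Itga4, an integrin subunit, was at 287 and 395 CPM (ratio 0.45, 0.04 to 0.90), and Ccr2 at 137 and 207 CPM (ratio 0.58, -0.01 to 1.24). Among 8 growth factor receptors 1 was called higher. It was Csf2rb, the shared chain of the GM-CSF and interleukin 3 receptors, with 8 and 41 UMIs (36.5 and 88.5 CPM) and a ratio of 1.21 (0.17 to 2.58), and in the cells with no UMI of the 10 further genes it was 0.26 (-1.25 to 2.03). It was not called in 5 of the 7 other selections in all. Flt3, the receptor needed for dendritic cell development, had a ratio of -0.22 (-1.08 to 0.71).

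Of 12 tested class II and costimulation genes 0 were called, against 6.48% higher and 6.31% lower over all genes. Their median log2 ratio was 0.35, or 0.05 with free RNA subtracted, and Cd74 had a ratio of 0.40 (0.19 to 0.63). In the same cells the free RNA level of Cd74 was 80.0 (WT) and 243 (N-LKO) CPM. Of 28 secretory genes 0 were called higher and 1 lower, with a median of 0.10. The lower gene was Sec61g, a subunit of the translocon, at 607 and 270 CPM (ratio -1.17, -1.53 to -0.81), and it was not called in cells with no UMI of the other cell types (-0.89). Hspa5, the endoplasmic reticulum chaperone BiP, was at 401 and 620 CPM, a ratio of 0.62 (0.28 to 0.99), below 2-fold. Nus1, the gene that was targeted in hepatocytes, was at 73.0 CPM (41.7 to 119) for WT and 56.1 CPM (36.7 to 82.3) for N-LKO, a ratio of -0.40 (-1.33 to 0.62), of which free RNA would give 28.9 and 17.9 CPM. Of 4 tested dolichol genes 0 were called.

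Respiratory chain genes encoded in the nucleus were the most uniformly moved list. All 45 tested genes had a ratio below 0, with 30 called lower and 0 called higher, against 6.31% lower among all genes, and the median was -1.11. Uqcr10, a complex III subunit, was at 629 and 175 CPM, a ratio of -1.84 (-2.26 to -1.44), with a free RNA level of 468 and 114 CPM. Summed over the list, the level was 20576 (WT) and 9275 (N-LKO) CPM, where free RNA would give 16169 and 4819 CPM. After free RNA was subtracted, the median over the 42 genes with a value was -0.09. In barcodes under 500 UMIs the list stood at 32309 (WT) and 10094 (N-LKO) CPM. The part of free RNA in the drop was not tested. Of 18 tested immediate early and heat shock genes, which can be induced while cells are handled, 2 were called higher (Egr1 and Atf3), against 6.48% of all genes, and 0 lower, with a median of 0.55. Atf3, a stress factor, had 2 and 23 UMIs, and Egr1 had 9 and 41, with ratios of 2.15 and 1.05. In the cells with no UMI of the 10 further genes the ratios were 2.10 and 0.95 on fewer UMIs, and neither was called. Egr1 was not called in 6 of the 7 other selections and Atf3 in 2.

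**Figure D4:**
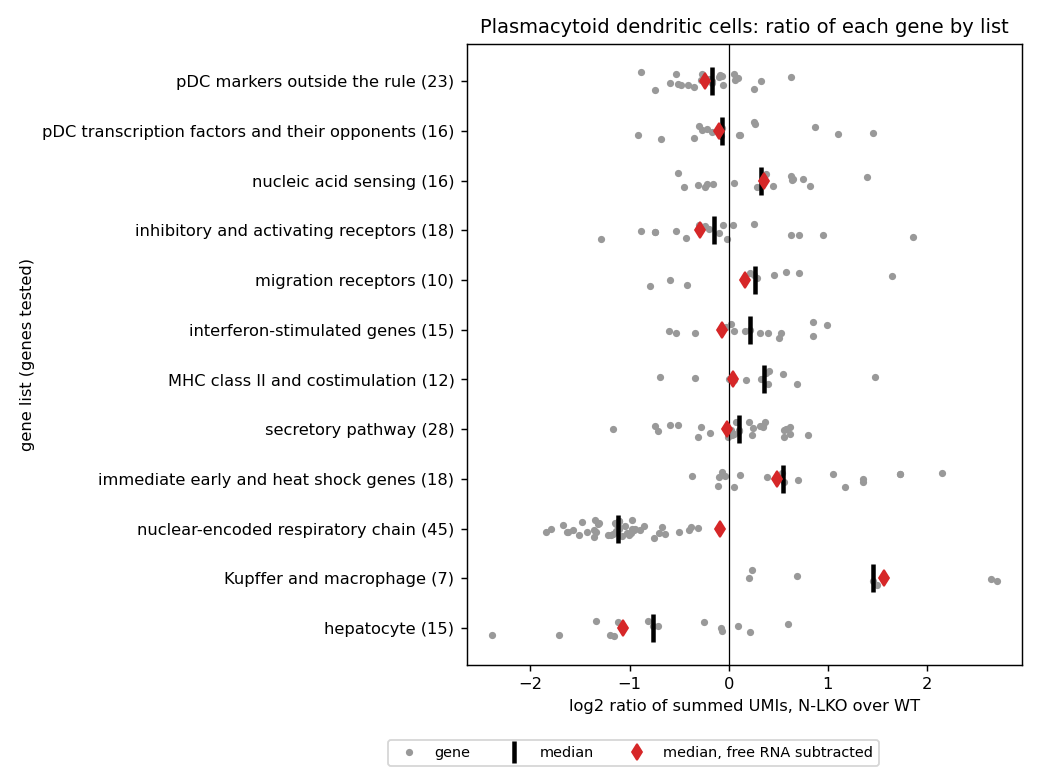
Log2 ratio of N-LKO over WT in plasmacytoid dendritic cells for each tested gene (grey) of 12 lists, with the list's median (black) and its median after free RNA was subtracted (red). The respiratory chain median moves from -1.11 to -0.09 on subtraction, while that of markers outside the rule moves from -0.17 to -0.24.

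Some markers of other cells also differed, and 6.48% of all genes were called higher. Among 7 tested Kupffer and macrophage genes 3 were called higher, with C1qa, a complement subunit, at 18.2 CPM (4.97 to 46.7) for WT and 127 CPM (97.0 to 164) for N-LKO, and a summed list level of 214 and 538 CPM, where free RNA would give 280 and 437 CPM. Lyz2, the myeloid lysozyme, was at 210 and 462 CPM, a ratio of 1.13 (0.67 to 1.63), the 1 call among 7 monocyte genes. Of 3 neutrophil genes tested 2 were called higher, S100a8 and S100a9, while Ly6g was at 0 UMIs in both. S100a9 was not called at a minimum of 500 UMIs (0.92) and turned to -0.59 at a mitochondrial limit of 10%. Of 9 endothelial genes 1 was called higher, Lyve1, with 1 and 14 UMIs, and it was not called in 6 of the 7 other selections of cells. Ebf1, a B-cell factor, had 1 and 21 UMIs, but the summed B-cell list was at 328 and 393 CPM, a ratio of 0.25 (-0.14 to 0.67). Of 6 tested T and NK genes 0 were called, and of 7 tested conventional dendritic genes 0 were called. The part of these cell types in the other results was not tested.

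The genes called higher whose interval bound nearest to 0 was farthest from it were Glis3, Zbtb16, Garem1, Lcn2, Grip1, Sox5, Spp1, Apbb2, Arhgef18, Eda, Scara5 and Fkbp5. Glis3, a zinc finger factor, had 0 UMIs in WT and 51 in N-LKO (110 CPM), and the lower bound of its log2 ratio was 2.66. Its free RNA level was 3.19 and 22.3 CPM. Zbtb16, the zinc finger factor PLZF, had 2 and 77 UMIs, with 83.3 CPM of free RNA in N-LKO against a level of 166 CPM. Lcn2, the acute phase protein lipocalin, had 1 and 49 UMIs, and its 106 CPM in N-LKO was close to the free RNA level of 93.0 CPM. Fkbp5, a chaperone induced by glucocorticoids, went from 18.2 to 145 CPM, a ratio of 2.83 (1.56 to 4.90). In the other classes the ratio of Fkbp5 was 2.20 in conventional dendritic cells, 1.72 in B cells, 1.49 in T and NK cells, 1.95 in endothelial cells and 2.55 in Kupffer cells, all from the same 2 libraries. Glis3, Zbtb16 and Lcn2 were also higher in N-LKO in each of the other 5 classes. Their ratios there ran from 1.68 to 4.36, from 1.67 to 3.10 and from 2.13 to 3.97. Arhgef18 had 1 and 38 UMIs and a ratio of 3.60 (1.60 to 9.51), but 1.58 at a minimum of 500 UMIs. Its ratio in the other 5 classes ran from -0.11 in conventional dendritic cells to 0.47 in B cells. The differences between cell classes were not tested.

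Genes called lower and ranked in the same way were Mup7, Mup12, Akr1c19, Sult2a8, Mup17, Mid1ip1, Mup11, Car3, Inmt, Fasn, Fabp1 and Gm12718, most of them hepatocyte transcripts. Fabp1, the fatty acid carrier of hepatocytes, was at 9401 (WT) and 1801 (N-LKO) CPM, where free RNA would give 9861 and 1550 CPM. Fasn, fatty acid synthase, was at 228 and 23.7 CPM, where free RNA would give 188 and 24.3 CPM. The major urinary protein genes Mup7, Mup11, Mup12 and Mup17 are near-identical copies and are uncertain.

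Some genes with free RNA below 25% of their level in the library where they were high were chosen after their values were seen, and are given as a description. Dock4, a Rac exchange factor, went from 50.2 to 268 CPM, a ratio of 2.36 (1.53 to 3.46), with free RNA of 31.4 and 63.5 CPM. Its ratio was 1.74 in T and NK cells, 1.58 in B cells, 0.83 in conventional dendritic cells, 0.49 in endothelial cells and 0.43 in Kupffer cells. Rnf169, a ubiquitin reader of DNA damage, went from 31.9 to 166 CPM, a ratio of 2.29 (1.27 to 3.74), with free RNA of 16.7 and 38.8 CPM, and its ratio in the other 5 classes ran from 0.68 to 1.17. Psmb8, a subunit of the immunoproteasome, fell from 214 to 90.7 CPM, a ratio of -1.24 (-1.88 to -0.61). Its ratio was -0.72 (-1.20 to -0.26) in T and NK cells, -0.40 in conventional dendritic cells, -0.15 in endothelial cells, -0.03 in Kupffer cells and 0.29 in B cells. Psmb8 was not called at a minimum of 500 UMIs (-0.99) or of 1500 UMIs (-0.64, -1.60 to 0.46). Pgls, a pentose phosphate enzyme, fell from 374 to 177 CPM, a ratio of -1.08 (-1.54 to -0.62). In the other classes the ratio of Pgls was -0.71 (-1.36 to -0.06) in conventional dendritic cells and -0.66 (-0.88 to -0.44) in endothelial cells. It was -0.34 in T and NK cells, -0.23 in B cells and 0.08 in Kupffer cells. Sqle, squalene epoxidase of sterol synthesis, had 11 and 5 UMIs and a ratio of -2.14 (-4.09 to -0.57), but -0.81 (-2.88 to 1.15) in the cells with no UMI of the 10 further genes, and was not called in 4 of the 7 other selections. Dock4, Rnf169 and Pgls were called in the same direction in each of the 7 other selections of cells tried. Those selections share most of their cells and both libraries with the main one, so they are not independent of the calls.

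Ratios also moved with the genomic span of the gene, taken from GENCODE M21. In the fifth of genes with the shortest span, with a median of 5.37 kb, the median log2 ratio was -0.41, and 43 were called higher and 231 lower. In the fifth with the longest span, with a median of 150 kb, it was 0.46, and 259 were called higher and 10 lower. With free RNA subtracted the medians ran from -0.32 to 0.25. Glis3 and Sox5 are among the genes called higher, with spans of 421 and 954 kb, and the part of span in their calls was not tested.

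**Figure D5:**
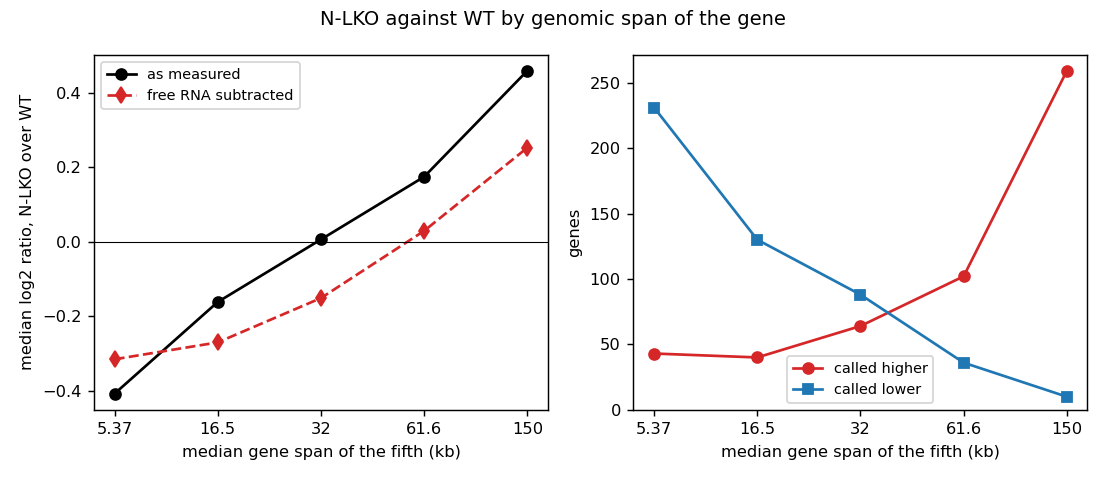
Left, median log2 ratio of N-LKO over WT in plasmacytoid dendritic cells for 5 equal groups of genes ordered by genomic span (x axis, median span in kb), as measured (black) and with free RNA subtracted (red). Right, genes called higher (red) and lower (blue) in each group, from 43 and 231 in the shortest to 259 and 10 in the longest.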

How the data were processed

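Droplet single-cell RNA-seq (10x Genomics) was made from 1 WT and 1 N-LKO liver library. The deposited UMI counts came, per the file headers, from Cell Ranger 7.1.0, and the submitters' processing notes name mm9 and Seurat. The authors' counts list 32285 genes and were not normalized. The files held 100171 and 90147 barcodes with 85522287 and 87575064 UMIs. The files hold no cell annotation, so cells were chosen by 13 genes (5 markers and 8 genes of other cells). UMIs were summed over the cells of each library, scaled to CPM, and compared by a log2 ratio with 0.5 UMI added and an exact conditional binomial 95% interval. Levels have exact Poisson intervals, shares exact Clopper-Pearson intervals. Floors were set at 3 counts. Genes needed 10 UMIs over both libraries. With 1 library per group no test was run. Cells were not replicates. Conventional dendritic, B, T and NK, endothelial, Kupffer and leukocyte classes were set by marker genes, and the first 5 held no Siglech by construction. Doublets were scored with Scrublet in scanpy 1.11.5 and kept. Named genes were the 12 higher and 12 lower called genes whose interval bound nearest 0 was farthest from it, the 25 leading genes with at least 20 UMIs in each library, and genes of the marker, transcription factor, sensing, interferon and receptor lists. The members and lists were chosen with earlier results of these data known. The comparison was also run on simulated Poisson counts with set changes. These held no difference in free RNA and no variation between cells or libraries. That run therefore does not measure errors of the calls in these data. Upstream sequences came from RefSeq GRCm38.p6 and gene spans from GENCODE M21, matched by symbol and gene ID, and the 2 builds were not mixed with coordinates of the files, which hold none. Values of some genes are not reported here.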

Additional observations from a re-analysis of the deposited data

How the results depend on the processing

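Apart from 2 denominators added later, every alternative kept the leukocyte share of plasmacytoid dendritic cells lower in N-LKO except a minimum of 1500 UMIs (0.377 percentage points), all cells passing the limits as the denominator (0.559) and both dendritic classes as the denominator (6.38). Some alternatives that kept it lower had an interval that included 0. A mitochondrial limit of 10% gave -0.605 (-1.63 to 0.420), and cells with a Ptprc UMI as the denominator gave -0.339 (-0.934 to 0.214). Of the denominators added after seeing the data, plasmacytoid plus B cells gave -7.87 and plasmacytoid plus T and NK cells 20.1. No alternative raised the limit on the other-cell sum, which left out more barcodes in N-LKO than in WT. The causes were not tested. Against 508 genes called higher and 495 called lower, a minimum of 1500 UMIs gave 266 and 321 and a mitochondrial limit of 10% gave 282 and 186, both on fewer cells (36 and 125, then 47 and 33, in WT and N-LKO). Free RNA subtraction gave 318 lower genes, an interval excluding 0 with no 2-fold limit 745 lower genes, and keeping genes with free RNA under 25% of the level in the library where they are high, an alternative chosen after seeing the data, 209 higher and 39 lower. The other alternatives stayed within 1.5 times these counts. A list median was compared with the spread of its genes. For markers outside the rule it was -0.016 at 1500 UMIs, -0.49 at 10% mitochondrial UMIs and 0.00374 without cells holding 10 further lineage genes, against -0.17. For interferon-stimulated genes it was -0.20, -0.12 and -0.034 under the same alternatives and -0.068 with free RNA subtracted, against 0.22, so its sign depended on the setting. The transcription factor median was -0.56 at 10% mitochondrial UMIs. The respiratory chain median was -0.92 at 1500 UMIs and -0.092 with free RNA subtracted. Of the ratios of named genes 385 stayed within their counting interval, 15 left it with the same sign and 3 changed sign: Clec10a at 1500 UMIs (2.32, with 0 UMIs in WT), and at 10% mitochondrial UMIs Sqle (0.060) and S100a9 (-0.59). No paired analysis was possible because each group has 1 library, and leaving out a replicate was not possible either. Depth limits genes with few UMIs: at 0 UMIs a level of up to 13.7 (WT) or 6.48 CPM (N-LKO) could not be seen.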
